A study of Mus musculus with 6 samples.

Results

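The voltage-gated sodium channel subunit genes Scn7a, Scn1a, Scn3a, Scn8a, Scn9a, Scn11a, Scn3b and Scn4b were examined in glomerular endothelial cells (GEC) of diabetic and normal mice. They were taken as every probeset of the arrays that is annotated to 1 of these gene symbols alone, which gave 9 probesets of 8 genes, out of 35557 probesets and 19938 genes with a probeset of their own. Scn7a was picked out because its signal was already known to be lower in the diabetic arrays of this same data set, so its values are given as a description, and no test of it is read as a result. The other genes came in by family. The 3 db/db samples (Tie2-GFP, DB/DB) and the 3 normal samples (Tie2-GFP, +/+) were from mice of 7 months. All of the mice carried Tie2-GFP, a transgene in which the promoter of the endothelial receptor Tie2 drives green fluorescent protein. The db/db animals lack a working leptin receptor in every cell from conception and become obese and diabetic. The sorted cells came from sieved and dissociated glomeruli, and each sample was read on 1 Affymetrix mouse whole-transcript array. The labels call the samples biological replicates and do not say how many mice went into each.

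A voltage-gated sodium channel is built from a large alpha subunit, which forms the pore and lets sodium into the cell when the membrane depolarises, and from small beta subunits that adjust its gating and its place in the membrane. Most alpha subunits carry the action potentials of neurons and muscle, and endothelial cells are usually regarded as inexcitable. Scn7a encodes the odd member of the family, an alpha subunit whose voltage sensors differ from those of its relatives and which is known in the brain for sensing extracellular sodium. The study named Scn7a as a gene that marks GEC among the endothelial cells of the kidney, which is why its behaviour in diabetic GEC is of interest.

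Scn7a lies next to Scn9a in a cluster of sodium channel genes, and the sequence before the start of each is shown because the neighbours gave such different readings on the arrays. RefSeq (GRCm38.p6) gave promoters for 6 of the 8 genes. The 250 bases before the Scn7a start lie at chr2:66784911-66785160 and those before the Scn9a start at chr2:66634963-66635212, both read from the minus strand, 5′ to 3′, with GGAA and its reverse complement in capitals. GGAA is the core that ETS transcription factors of endothelial cells bind.
Scn7a: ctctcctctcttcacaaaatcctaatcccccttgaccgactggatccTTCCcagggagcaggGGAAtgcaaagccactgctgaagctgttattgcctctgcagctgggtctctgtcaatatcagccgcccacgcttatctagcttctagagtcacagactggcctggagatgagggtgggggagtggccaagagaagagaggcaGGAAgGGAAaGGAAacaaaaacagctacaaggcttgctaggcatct
Scn9a: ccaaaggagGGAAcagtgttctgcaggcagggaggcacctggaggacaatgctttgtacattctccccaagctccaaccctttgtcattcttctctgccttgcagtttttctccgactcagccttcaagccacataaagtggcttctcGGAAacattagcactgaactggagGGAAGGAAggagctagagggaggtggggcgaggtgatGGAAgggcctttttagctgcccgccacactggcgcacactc
The Scn7a promoter held 5 matches to GGAA on either strand, as did that of Scn9a, and 18.0% of all 32851 promoters of this length held as many. GATA, the core bound by GATA factors, had 2 matches in the Scn7a promoter, neither overlapping a GGAA, and 0 in that of Scn9a, and 53.6% of all promoters held at least 1. Neither promoter held TATAAA (the TATA box, 12.4% of promoters), CAGCACC (5.73%) or GGACAG (18.7%), the last 2 being parts of the element through which the repressor REST silences neuronal genes. The Scn7a promoter had 3 CG dinucleotides, against 5 in that of Scn9a and a median of 6. These matches describe the letters of the promoters and no binding was measured.

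The 6 arrays were closely alike. Their median log2 signals lay between 7.00 and 7.04, and r between pairs of arrays was 0.954 to 0.971. The 10 pan-endothelial markers all reached the level filter of the study (a linear signal of 100 or above in 3 arrays or more), which 58.1% of all probesets passed. Their summed linear signal was 57329 to 59560 in db/db and 56454 to 57823 in normal GEC. Markers of other cells were present to differing extents. Of the podocyte markers 5 of 6 passed, and their summed linear signal was 4316 to 4392 in db/db and 4824 to 5796 in normal GEC, without overlap. Most of this sum was Podxl, a sialomucin that endothelium also makes, at 3508 to 4864 over the arrays. Podxl (log2 change -0.27 ± 0.10) and Cdkn1c (-0.40 ± 0.12), a cell cycle inhibitor, were lower in db/db without overlap. Wt1 (0.08 ± 0.07) was higher without overlap. Groups did not overlap in 12.3% of all probesets past the filter. Synpo changed by 0.24 ± 0.16 and Nphs1, which encodes the slit diaphragm protein nephrin, by 0.06 ± 0.11. Of the smooth muscle and fibroblast markers 5 of 8 passed (sum 730 to 933 in db/db, 714 to 889 in normal), and of the tubule markers 4 of 8 (sum 613 to 674 in db/db, 522 to 619 in normal). The tubule markers Umod and Slc22a6 reached 100 in the 3 db/db arrays alone. They passed only through the group where they were higher, so no direction is read from this sum. Of the leukocyte markers 2 of 7 passed, with Ptprc, Adgre1, Itgam, Lyz2 and Cd52 below it (sum 266 to 392 in db/db, 230 to 298 in normal). Cd68, which passed, was higher in db/db without overlap (log2 change 0.76 ± 0.27, limma adjusted p = 0.752). Its lowest normal array read 99.3 on the linear scale. The db/db arrays alone were enough for Cd68 to pass, so no direction is read from it. Of the mesangial markers 2 of 7 passed, with Pdgfrb, Itga8, Gata3, Des and Pdgfra below it (sum 539 to 627 in db/db, 363 to 635 in normal). No probeset of the 20661 that passed the filter differed between the groups after adjustment over all of them (limma, 0% called, smallest adjusted p = 0.203), and 1320 of them (6.39%) had an unadjusted p below the threshold of 0.05.

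Scn7a was the only 1 of the 8 genes that reached the level filter, against 64.2% of all probesets with 1 gene, and it did so in all 6 arrays. Its log2 signal was 8.24, 8.40 and 8.81 in the db/db arrays, against 11.06, 10.99 and 11.35 in the normal arrays. On the linear scale this was 303, 339 and 449 in db/db, against 2133, 2030 and 2610 in normal GEC. Every db/db array was lower than every normal array, and the gap between the highest db/db array and the lowest normal array was 2.18 on the log2 scale, or 4.52-fold. Groups did not overlap in 12.3% of all probesets past the filter, and in 5.31% the db/db arrays were the lower ones. Where each gene was given by 1 probeset, 1 of 12763 genes (0.00784%) passed limma, and that gene was Scn7a. The contrast is the one that picked it, so nothing is read from this.

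The mean of Scn7a was 8.49 ± 0.29 in db/db and 11.13 ± 0.19 in normal GEC (log2, SD, n = 3 each), a log2 change of -2.65 ± 0.18 (limma SE), with a 95% interval of -3.10 to -2.19. The signal was 6.26-fold lower in db/db, and over the 9 pairings of a db/db with a normal array it was between 4.52-fold and 8.62-fold lower. Scn7a thus stayed above the filter in db/db, where the lowest array read 303. The level of the filter is not a measure of background, and the tubule marker Aqp2 read 179 to 250 in the same arrays. How much of the db/db signal of Scn7a is background is not known, and the size of the change may be affected. The spread within groups was moderate. The residual SD of Scn7a was 0.25 on the log2 scale, against a median of 0.16 over the 13993 probesets with 1 gene that passed the filter. The coefficient of variation of the linear signal was 21.0% in db/db and 13.7% in normal GEC.

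Among those 13993 probesets the log2 change of Scn7a was the 4th lowest. The 3 lower ones all belonged to Hmcn1, which encodes the extracellular matrix protein hemicentin, with log2 changes of -3.17 ± 0.68, -2.86 ± 0.37 and -2.84 ± 0.62. The probesets with the changes of -2.86 and -2.84 were below 100 on the linear scale in all 3 db/db arrays, and that with -3.17 in 2 of 3, so the sizes of these changes and the rank of Scn7a behind them rest on signal near the floor. The arrays of Hmcn1 were more scattered than those of Scn7a, as in the probeset with the change of -3.17, which read 8.19, 6.32 and 5.65 in db/db and 9.37, 9.94 and 10.35 in normal GEC.

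**Figure D1:**
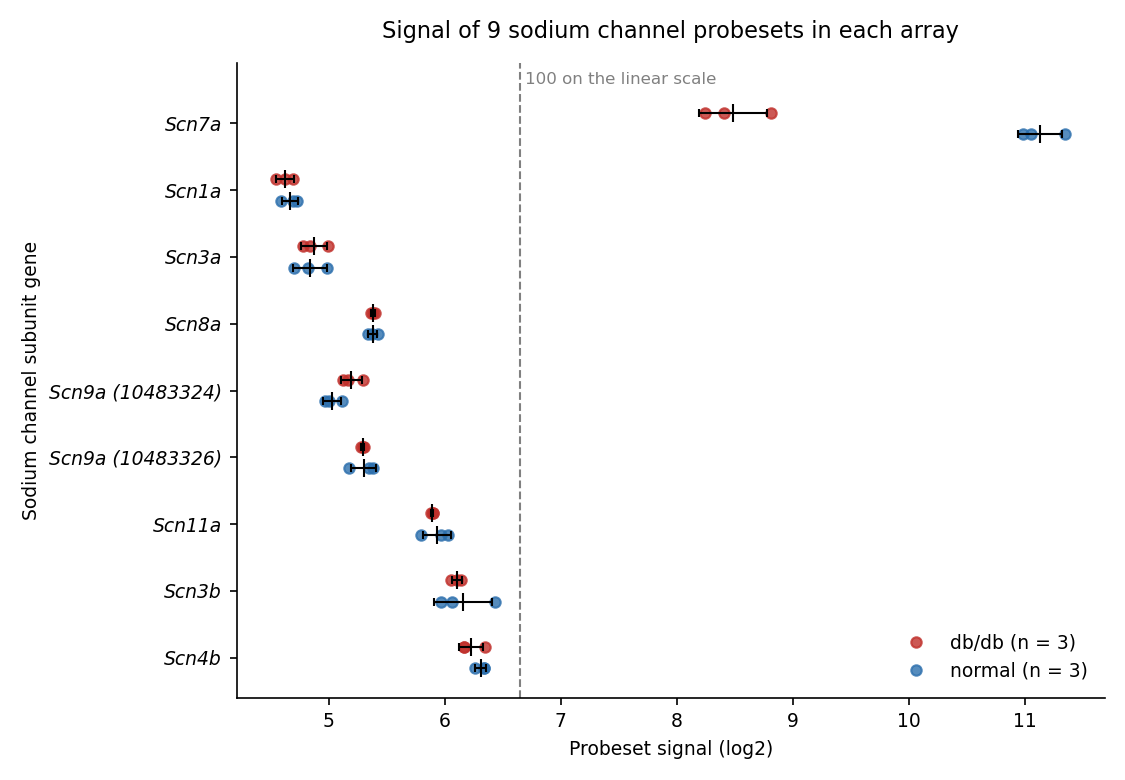
Log2 probeset signal of the 9 sodium channel probesets (rows) in each array (points), db/db above normal, with group mean (tick) and SD (bar, n = 3), and the level of 100 on the linear scale as a dashed line. Scn7a lies to the right of the line in every array, at 8.24 to 8.81 in db/db and 10.99 to 11.35 in normal GEC, and the other 8 probesets lie to its left.

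Scn7a was also read against endothelial genes of the same sort. Relative to the mean log2 signal of the 10 pan-endothelial markers of the same array, Scn7a stood at -3.89, -3.77 and -3.31 in db/db, against -1.05, -1.15 and -0.77 in normal GEC. The change in this relative signal was -2.66. The markers themselves moved little, with a median log2 change of 0.06. Kdr, the main VEGF receptor, read 13.18, 13.18 and 13.18 in db/db and 13.10, 13.06 and 13.10 in normal GEC, and Emcn, a sialomucin of capillaries, had a log2 change of 0.05 ± 0.07. Tek, which encodes Tie2 itself, had the largest change of the list, -0.33 ± 0.12 (adjusted p = 0.754). In these bulk sorts a smaller share of cells that carry Scn7a and less Scn7a RNA per cell cannot be told apart.

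Globin and nerve cell genes were read in the same arrays. The 4 probesets that each list several adult globin genes had log2 changes between -2.07 and -1.77. Their mean log2 signal was 9.75, 10.64 and 10.28 in db/db, against 12.05, 11.92 and 12.44 in normal GEC. The normal arrays had the same order in Scn7a and in globin signal, and db/db replicate 1 was the lowest in both. The order of the other db/db arrays differed, replicate 3 being above replicate 2 in Scn7a (8.81 and 8.40) and below it in globin signal. The erythrocyte markers outside the globins read little above the level filter. Alas2 lay at 139 to 177 and Slc4a1 at 131 to 161 on the linear scale, where a change may not be detectable. Alas2, the first enzyme of haem synthesis in red cells, changed by -0.10 ± 0.12 and Slc4a1, the anion exchanger of the red cell membrane, by 0.01 ± 0.11, and both overlapped between the groups. Scn7a is also known from Schwann cells and sensory neurons, so markers of both were read. Of the neuron markers 5 of 9 passed the filter, with Snap25, Syt1, Nefl and Nefm below it, and their summed linear signal was 1479 to 1604 in db/db and 1792 to 2241 in normal GEC. Stmn2, a tubulin-binding protein of growing neurites, was the only 1 of the 5 whose groups did not overlap, against 12.3% of all probesets past the filter. Stmn2 was also the largest single part of the neuron sum, at 616 to 1430 on the linear scale. It read 9.27, 9.73 and 9.58 in db/db and 10.40, 10.31 and 10.48 in normal GEC (log2 change -0.87 ± 0.14, adjusted p = 0.359). The neuronal ubiquitin hydrolase gene Uchl1 went the other way, at 9.15, 8.36 and 8.24 in db/db and 7.27, 7.41 and 8.72 in normal GEC (0.78 ± 0.46, adjusted p = 0.843), as did the neuronal tubulin gene Tubb3 (0.54 ± 0.25). Th and Dbh, enzymes of catecholamine synthesis, changed by -0.06 ± 0.08 and -0.02 ± 0.34. Of the Schwann cell markers 5 of 8 passed, with S100b, Cdh19 and Gfap below the filter, and their sum was 1157 to 1496 in db/db and 1485 to 1792 in normal GEC. Pmp22, a membrane protein of myelin that many other cells also make, changed by -0.54 ± 0.19 (adjusted p = 0.753), with groups that overlapped. Pmp22 was the largest single part of the Schwann cell sum, at 505 to 975 on the linear scale. The adhesion molecule gene L1cam was the only 1 of the 5 whose groups did not overlap (-0.39 ± 0.17), against the same 12.3%. Ncam1, Sox10 and Mbp changed by -0.18 ± 0.25, -0.05 ± 0.09 and 0.13 ± 0.09. Whether podocyte RNA, blood RNA or nerve cells had a part in the Scn7a values was not tested.

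The other pore-forming subunits gave low signal in both groups. Scn1a, a main sodium channel of inhibitory neurons, read 4.62, 4.54 and 4.69 in db/db and 4.72, 4.69 and 4.58 in normal GEC. Scn3a, which is prominent in the developing brain, read 4.78, 5.0 and 4.84 in db/db and 4.82, 4.99 and 4.70 in normal GEC. Scn8a, the channel of nodes of Ranvier, read 5.36, 5.38 and 5.40 in db/db and 5.37, 5.34 and 5.42 in normal GEC. For each of the 3 genes the groups overlapped, with log2 changes of -0.05 ± 0.08, 0.03 ± 0.11 and 0.0035 ± 0.06.

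Scn11a, a channel of pain-sensing neurons that conducts at resting potentials, read 5.89, 5.88 and 5.89 in db/db and 6.03, 5.79 and 5.97 in normal GEC. The normal arrays lay on both sides of the db/db arrays, and the log2 change was -0.04 ± 0.08. Scn9a, another channel of pain-sensing neurons and the chromosomal neighbour of Scn7a, had 2 probesets that did not move together. That numbered 10483324 read 5.17, 5.12 and 5.29 in db/db and 5.11, 5.0 and 4.97 in normal GEC, so that the db/db arrays were just above the normal ones (log2 change 0.17 ± 0.08). That numbered 10483326 read 5.30, 5.27 and 5.29 in db/db and 5.35, 5.38 and 5.17 in normal GEC, with a change of -0.01 ± 0.08. Neither probeset showed a change of the size seen in Scn7a, but at signals this low a change may not be detectable.

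The beta subunits were measured through Scn3b and Scn4b. Scn3b, whose product binds alpha subunits without a covalent bond, read 6.06, 6.14 and 6.11 in db/db and 5.97, 6.44 and 6.06 in normal GEC. The normal replicate 2 stood above the rest, and its linear value of 86.6 was the highest of any of these probesets below the filter. Scn4b, whose product is joined to alpha subunits by a disulphide bond, read 6.17, 6.34 and 6.17 in db/db and 6.26, 6.34 and 6.34 in normal GEC. Their log2 changes were -0.05 ± 0.14 and -0.08 ± 0.08, and in both genes the groups overlapped.

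Taken as a group, these 8 probesets of 7 genes had linear signals between 23.3 and 86.6 and reached 100 in 0 of 6 arrays, so they had no place in the filtered test. In limma's test over all 35557 probesets with no filter 0 of the 8 passed (adjusted p between 0.916 and 0.997), against a background of 0% called, and 0 of the 8 had an unadjusted p below 0.05, against 5.46% of all probesets. The groups did not overlap in 1 of the 8, the Scn9a probeset numbered 10483324, against 11.3% of all probesets. Their median log2 change was -0.03, and the 95% intervals of their changes lay within -0.39 and 0.37. At signals this low a change of the transcript may not be detectable on these arrays.

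Scn2a, a channel of excitatory neurons, had 14 probesets of its own, of which 13 were below the filter at no more than 67.8 on the linear scale. The one that passed read 7.18, 7.11 and 7.25 in db/db and 7.12, 7.15 and 7.11 in normal GEC (log2 change 0.05 ± 0.08, adjusted p = 0.947). Scn10a, of pain-sensing neurons, and Scn2b, a beta subunit, had 1 probeset each, at 52.2 to 72.8 and 54.5 to 66.4 on the linear scale. The 3 probesets that list several of Scn1a, Scn2a, Scn3a and Scn9a read 14.8 to 41.8.

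The genes that flank Scn7a on the chromosome were read to see whether its lower signal extended along the region. Of the 5 protein-coding genes on either side only Ttc21b, B3galt1 and Stk39 passed the filter. Ttc21b, which encodes a protein of transport in cilia, read 8.81, 9.13 and 8.58 in db/db and 8.86, 8.80 and 8.72 in normal GEC (log2 change 0.04 ± 0.15). B3galt1, a galactosyltransferase, read 7.61, 8.46 and 7.97 in db/db and 8.23, 7.89 and 7.01 in normal GEC (0.30 ± 0.37). Stk39, a kinase that activates sodium-coupled chloride transporters, read 8.64, 8.82 and 9.06 in db/db and 8.91, 8.94 and 8.76 in normal GEC (-0.03 ± 0.13). The groups overlapped in all 3 and none passed limma's test (adjusted p = 0.982, 0.923 and 0.984). The other 7 flanking genes, Scn9a and Scn1a among them, were below the filter, with log2 changes between -0.10 and 0.18.

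**Figure D2:**
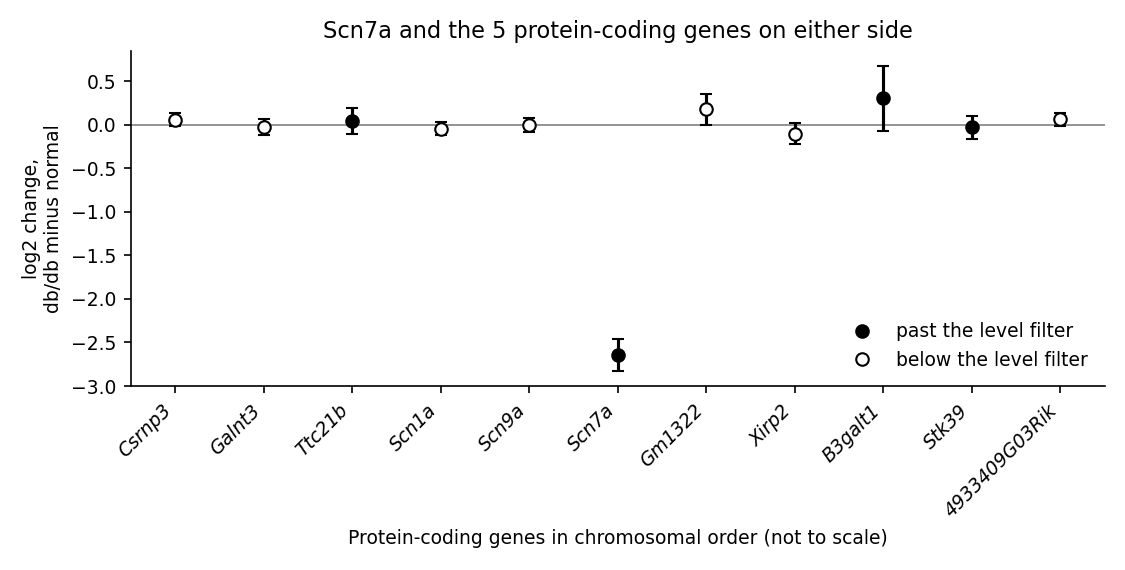
Log2 change, db/db minus normal, with limma SE (bars) of Scn7a and the 5 protein-coding genes on either side in chromosomal order, filled where the probeset passed the level filter. Scn7a lies at -2.65 and its neighbours lie between -0.10 and 0.30.

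The text of the study named 6 more genes of GEC beside Scn7a, from comparisons that involved these normal samples, so they are no independent evidence of a direction. The full list of GEC genes of the study is longer, and the rest of it was not taken in. All 6 passed the filter. Gimap3, a GTPase of cell survival, read 9.75, 8.25 and 8.95 in db/db and 10.12, 10.28 and 10.08 in normal GEC (log2 change -1.17 ± 0.37, adjusted p = 0.702). Sema5a, a semaphorin, read 11.44, 10.94 and 11.25 in db/db and 11.47, 12.21 and 11.72 in normal GEC (-0.59 ± 0.23, adjusted p = 0.772, and -0.38 without normal replicate 2). Gata5, a transcription factor of cardiac endothelium, read 10.92, 10.87 and 10.72 in db/db and 11.09, 11.24 and 11.03 in normal GEC (-0.28 ± 0.10, adjusted p = 0.754). In these 3 genes the db/db arrays were all below the normal arrays, by less than in Scn7a.

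Ehd3, a regulator of endosomal trafficking, changed by -0.10 ± 0.09, its db/db arrays being at 12.62 to 12.68 and its normal arrays at 12.70 to 12.87. The secreted protease gene Adamts5 (-0.09 ± 0.42) and Nostrin, whose product traffics the endothelial nitric oxide synthase (0.12 ± 0.12), overlapped between the groups. Over the 6 genes the median log2 change was -0.19, against 0.01 over all probesets that passed the filter, with 0 past limma's test in either direction (0% called). The groups did not overlap in 4 of the 6, all lower in db/db, against the 5.31% of all probesets given above. Separation in either direction was not particular to this list. Of the 10 pan-endothelial markers the groups did not overlap in 6, against 12.3% of all probesets past the filter in either direction. Tek and Flt1 were lower in db/db, and Pecam1, Cdh5, Kdr and Eng were higher. The summed linear signal of the list was 16760 to 17890 in db/db and 18756 to 20688 in normal GEC.

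**Figure D3:**
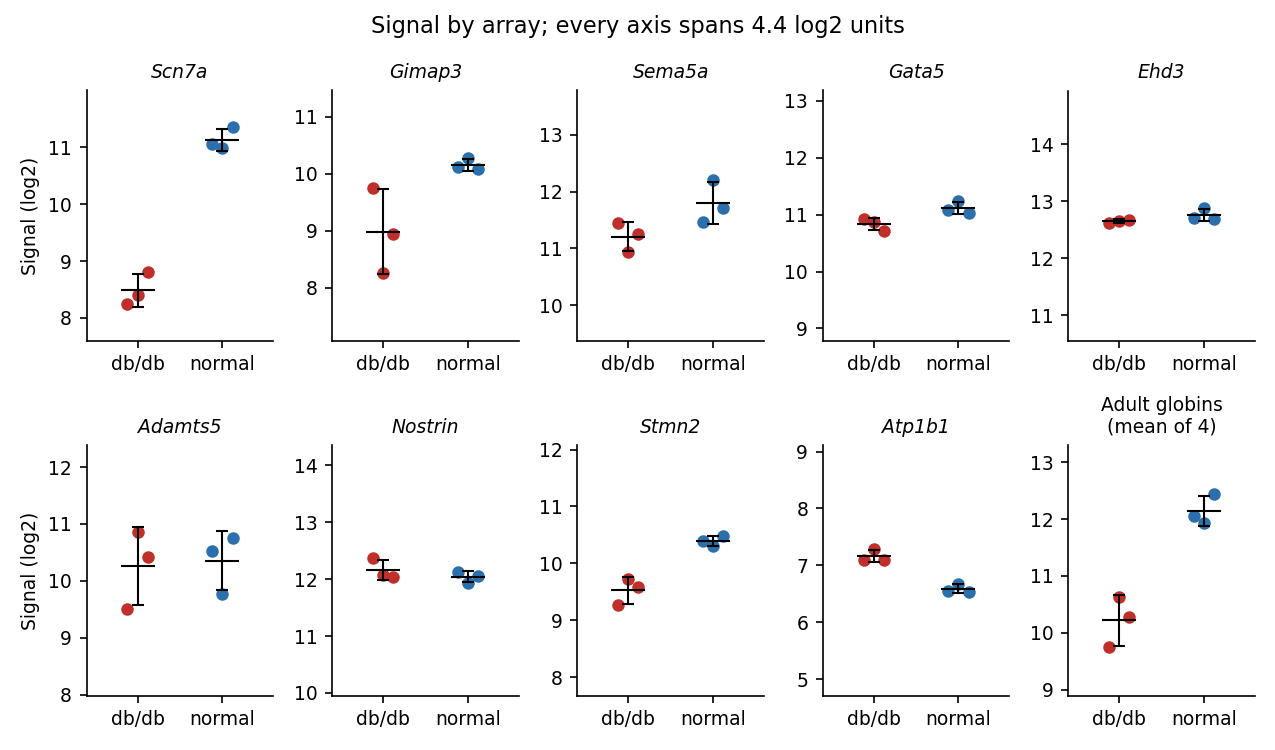
Log2 signal by array (points) with group mean and SD (bars, n = 3) for Scn7a, the other GEC genes named by the study, Stmn2, Atp1b1 and the mean of 4 globin probesets, db/db left of normal. Each axis spans the same log2 range, and Scn7a and the globins show the widest gaps between the groups of the 10 panels.

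Genes whose products bind sodium channels or set their number at the membrane were read next. Of the list of partners and regulators 15 genes passed the filter and 0 rose or fell (limma, adjusted over all probesets, 0% called), with a median log2 change of -0.01. Fgf11, Fgf12, Fgf13 and Fgf14, which encode the intracellular growth factor homologues that bind the tail of alpha subunits, were below the filter. Nedd4l and Nedd4, ubiquitin ligases that remove channels from the membrane, changed by -0.17 ± 0.12 and 0.12 ± 0.08 (adjusted p = 0.864 and 0.846). Nedd4l was lower in db/db in 8 of 9 pairs of arrays, and Nedd4 was higher in 9 of 9. Nedd4 was the only 1 of the 15 whose groups did not overlap, against 12.3% of all probesets past the filter. Gpd1l, which affects sodium channel trafficking in the heart, changed by -0.27 ± 0.13 (adjusted p = 0.808) and was lower in 8 of 9 pairs. Calm2, 1 of the genes for calmodulin, changed by 0.01 ± 0.07.

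Other routes of sodium into the cell also showed no call. Of 15 such genes past the filter 0 rose or fell, with a median log2 change of 0.04, and the epithelial sodium channel genes Scnn1a, Scnn1b and Scnn1g were below the filter, as was the sodium leak channel gene Nalcn. Slc12a2, which brings in sodium with potassium and chloride, read 10.36, 10.24 and 10.13 in db/db and 9.99, 9.53 and 10.48 in normal GEC (0.24 ± 0.25, adjusted p = 0.903, and 0.01 without normal replicate 2). Slc5a3, which takes up the osmolyte inositol with sodium, changed by 0.40 ± 0.29, and the vitamin transporter gene Slc5a6 by 0.19 ± 0.11 (adjusted p = 0.873 and 0.843). Slc12a3, the sodium chloride transporter of the distal tubule, changed by 0.19 ± 0.13 (adjusted p = 0.866).

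The sodium pump, which carries sodium back out, had 10 subunit and regulator genes past the filter, of which 0 rose or fell after adjustment. Atp1b1, a beta subunit of the pump, read 7.10, 7.28 and 7.10 in db/db and 6.55, 6.68 and 6.54 in normal GEC. Every db/db array was above every normal array, as in 7.01% of all probesets past the filter, with a log2 change of 0.57 ± 0.09 that did not pass (adjusted p = 0.359). Atp1b1 reached the level of the filter in 4 arrays, among them every db/db array, and its lowest normal array read 92.9 on the linear scale. Its db/db arrays alone were enough for it to pass the filter, so no direction is read from this gene. Atp1b3, another beta subunit, read 10.87, 11.18 and 10.74 in db/db and 10.77, 10.51 and 10.85 in normal GEC (0.22 ± 0.15, adjusted p = 0.87). The pump regulators Fxyd4 and Fxyd5 changed by 0.19 ± 0.09 and -0.11 ± 0.09 (adjusted p = 0.823 and 0.88). The median change over the 10 genes was 0.03.

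Of 13 genes of the salt and osmotic response past the filter 0 rose or fell, with a median log2 change of -0.0041. Ednrb, the endothelin receptor that releases nitric oxide in endothelium, read 12.60, 12.11 and 12.41 in db/db and 13.05, 12.59 and 12.63 in normal GEC (-0.39 ± 0.18, adjusted p = 0.814). Nr3c2, the mineralocorticoid receptor, changed by -0.30 ± 0.23 (adjusted p = 0.879), and Slc6a6, which takes up the osmolyte taurine, by -0.05 ± 0.12. At an unadjusted p below 0.05 1 gene of the 4 sodium and salt lists was higher, Atp1b1, and 0 were lower, against 3.48% higher and 2.91% lower over all probesets. Atp1b1 had normal signal close to the level of the filter, as given above, so no direction is read from this count.

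**Figure D4:**
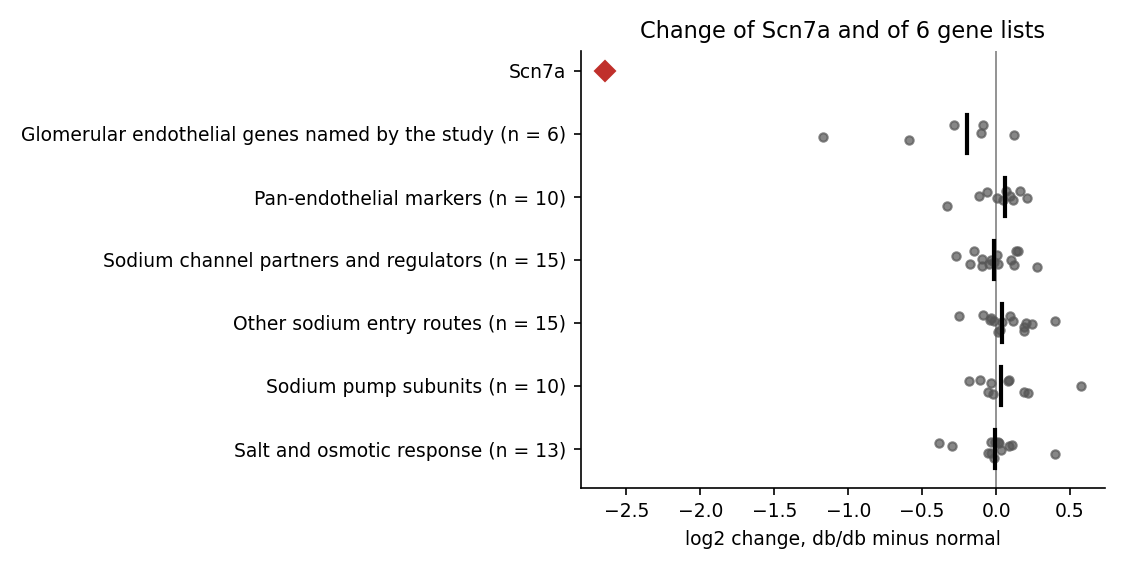
Log2 change, db/db minus normal, of Scn7a (diamond) and of each gene past the level filter (points) in 6 lists, with the median of each list (bars). The medians of the sodium and salt lists lie between -0.01 and 0.04, and the median of the GEC genes named by the study lies at -0.19.

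The genes whose signal over the 6 arrays was most like that of Scn7a were Sync (Pearson r = 0.995), Atp13a3 (0.992), Sec14l1 (0.989), Itga3 (0.986) and Hprt (0.986), chosen by r among probesets with 1 gene that passed the filter. The points of each r fall into 2 groups, so r follows the step between db/db and normal arrays whatever its size, and 33 of the 13992 probesets compared had r above 0.95. The steps were smaller than that of Scn7a. Itga3, a laminin-binding integrin subunit, read 9.25, 9.42 and 9.52 in db/db and 10.07, 9.95 and 10.06 in normal GEC (log2 change -0.63 ± 0.10, adjusted p = 0.359). Atp13a3, a transporter of polyamines, changed by -0.31 ± 0.08, and Hprt, an enzyme of purine salvage, by -0.16 ± 0.07.

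The genes with the most opposite signal were Clcn5 (r = -0.995), Slco2a1 (-0.991) and Rap2a (-0.989). Clcn5, an endosomal exchanger of chloride and protons, read 8.01, 7.83 and 7.78 in db/db and 7.09, 7.12 and 7.04 in normal GEC (log2 change 0.79 ± 0.09, adjusted p = 0.256). Slco2a1, which carries prostaglandins, and Rap2a, a small GTPase, changed by 0.20 ± 0.07 and 0.40 ± 0.07 (adjusted p = 0.748 and 0.401). Of the GEC genes named by the study Gata5 and Gimap3 had the highest r with Scn7a, 0.771 and 0.765, and Nostrin the lowest, -0.502. All of these r are descriptions over 6 arrays.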

How the data were processed

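RNA of sorted Tie2-GFP positive cells was amplified and hybridised to Affymetrix Mouse Gene ST arrays. The deposited values hold the log2 signal, 1 for each probeset and array. The study says that the authors used RMA within GeneSpring, but MAS5 is the only name in the processing notes of the submitters. Once sorted, values of any pair of arrays were within 0.146 of each other, so that a change is measured against the rest of the array. No further normalisation was applied. The number of arrays limits the precision.

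Probesets were named through the platform annotation, which gave 21789 a single gene, 1621 several and 12147 none. Those whose linear signal was 100 or above in 3 arrays or more, the study's level, were tested with limma 3.58.1 in R 4.3.3 (lmFit and eBayes, db/db minus normal, two-sided, Benjamini-Hochberg over all 20661, threshold 0.05). Probesets below the level were tested in a fit of all 35557. The fit was first tested on simulated data. Where a gene had more than 1 probeset the highest mean was used, but all probesets of the channel genes were kept. An exact test of 3 against 3 arrays cannot pass the threshold and none was run. Errors are SD for values and limma's SE for changes, and intervals are 95%.

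The channel genes and the lists were chosen with earlier results of these data known. Named were all channel probesets, of each sodium and salt list the 3 genes with the smallest p and that with the highest mean, the GEC genes of the study, of each marker list the 2 highest and the most changed (those of cell types that bear on Scn7a are printed), 5 flanking genes on either side and the 5 most and 3 least alike genes. Alternatives were array weights, a replicate block, an intensity trend (with a robust prior or not), a level of 200 or none, median centring, quantile normalisation, each array left out, the methods' t-test, 1 probeset per gene and only probesets with a gene listed.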

Additional observations from a re-analysis of the deposited data

How the results depend on the processing

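The log2 change of Scn7a was -2.64 with quantile normalisation, -2.66 with median centring, -2.60 with array weights and between -2.81 and -2.52 when each array was left out in turn. It moved by less than the SD between replicates (0.25) in each of these. Scn7a had no other probeset of its own to compare. With 1 probeset per gene 1 of 12763 passed, and that gene was Scn7a, which had been picked for this contrast, so its passing is no evidence. In every other limma fit 0 probesets passed, and so did 0 of the sodium and salt genes and GEC genes of the study. The other sodium channel genes were below the level, so only the fit with no level filter tested them, and 0 passed there. The methods' t-test gave 1280 probesets below its unadjusted threshold and 0 after Benjamini-Hochberg adjustment. Among the 1280 were 2 genes of the sodium and salt lists, Atp1b1 and Nedd4, and 1 GEC gene, Gata5, and 0 of the other sodium channel genes, which the level filter had removed.

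The labels number the replicates 1 to 3 in each group. Deviations of same-numbered arrays from their group means correlated between -0.0296 and 0.0353, so the numbers did not pair the arrays. With a replicate block the change of Scn7a was -2.65, 0 probesets passed and 1287 rather than 1320 had an unadjusted p below 0.05. Only 1 of the 3 db/db arrays correlated best with its own number. Of the other named genes Slco2a1 moved by more than its replicate SD, to 0.19 with either scaling. Many of these changes rested on single arrays. When each array was left out in turn, 30 of 50 moved by over 1.5 times or changed sign, and 11 changed sign, Adamts5, Calm2, Slc6a6, Ncam1 and Slc4a1 among them. Without normal replicate 2 the change of Slc12a2 was 0.01 instead of 0.24, that of Nr3c2 -0.07 instead of -0.30, that of Ehd3 -0.05 instead of -0.10 and that of Sema5a -0.38 instead of -0.59. Slc5a3 was at 0.16 instead of 0.40 without db/db replicate 3, Nostrin at 0.01 instead of 0.12 without db/db replicate 1, and Ednrb at -0.24 instead of -0.39 without normal replicate 1.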
